A study of Mus musculus with 2 samples.

Results

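The carbonic anhydrase genes described here are Car1, Car2, Car3, Car4, Car5b, Car8, Car9, Car12, Car13 and Car14, chosen by gene symbol, and they make up 10 of the 27275 genes in the table. They were proposed with the values of both libraries already known, so their differences are given as a description and carry no test. The RNA came from small intestine of naive mice, with 1 library labelled WT, whose genotype is given as Spib+Villin-Cre, and 1 labelled KO, whose genotype is given as Spibfl/flVillin-Cre. In the KO library the floxed Spib gene, which encodes an ETS family transcription factor, is deleted by Cre recombinase under the villin promoter, which is active in the gut epithelium, so the gene is not removed from immune cells. Villin-Cre is named in both genotypes. Neither the age and number of the mice nor any pooling of RNA is given in the labels. The comparison of the libraries asks how the intestinal transcriptome of unchallenged animals differs when the epithelium lacks Spib.

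Levels are in FPKM, the authors' reads scaled to gene length and library size. The depths implied by the values were 17425640 reads in the WT library and 17658566 reads in the KO library. Spib had 4.94 FPKM in the WT library and 0.592 FPKM in the KO library, the direction of the labels. The design text calls the tissue proximal small intestine, and the regional markers were mixed. The ileal bile acid binding protein gene Fabp6 had 2030.2 and 1735 FPKM, and the ileal bile acid transporter gene Slc10a2 had 92.6 and 92.1 FPKM, in the WT and KO libraries. Lactase (Lct, 190 and 199 FPKM) and the proximal transcription factor gene Gata4 (15.7 and 17.2 FPKM) were present too, while the duodenal factor gene Pdx1 was near 0 (0.106 and 0.0262 FPKM). Of genes reaching 1 FPKM in at least 1 library, 5 of 6 duodenum and jejunum markers were higher in the KO library. The other 1, the iron exporter gene Slc40a1, was lower (8.75 and 3.41 FPKM). Lower too were 6 of 7 ileum markers, 6 of 7 pancreatic acinar markers and 2 of 2 stomach and Brunner gland markers. Over all genes that reached 1 FPKM, 41.3% were higher in the KO library, so lower values were the more common. Whether the 2 libraries sampled the same stretch of gut was not tested. With 1 library per genotype no difference below has a replicate check, and every interval covers counting error only.

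Carbonic anhydrases interconvert carbon dioxide and water with bicarbonate and a proton. In the gut this reaction supplies bicarbonate for secretion into the lumen and protons and bicarbonate for the exchangers that absorb sodium chloride. Family members differ mainly in where they work, namely the cytosol (Car1, Car2, Car3, Car13), the outer face of the plasma membrane (Car4 on a lipid anchor, Car9, Car12 and Car14 through a membrane span) and mitochondria (Car5b). Car8 is a cytosolic member without the enzyme activity.

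A zinc ion at the active site is held by 3 histidines, and the coding sequence at the first pair of them is printed here because it shows what the members have in common and where Car8 departs. Each stretch holds 24 bases, 5′ to 3′ on the coding strand, from the GENCODE M21 transcript with the longest coding sequence, and the capitals mark the codons aligned with the first and second zinc-binding histidines of Car2.
Car1: actcagttcCATtttCACtggggc
Car13: cggcagttcCATttgCACtggggg
Car2: atccagtttCACtttCACtggggc
Car3: cgccaattcCATcttCACtggggc
Car4: gtacagttgCACctgCACtggtca
Car8: tatgaagttAGAtttCACtgggga
Histidine codons stood at all 3 places in 9 of the 10 genes. In Car8 the first marked codon, number 117 of its coding sequence, is one for arginine, and the second is one for histidine. Among the members, the translated sequences of Car1 and Car13 were the most alike, with 64.0% identity over 261 aligned codons, and Car4 and Car8 were the least alike, with 28.3% over 265. Between the transcripts of the 16 genes named Car, 3 of 120 pairs had any word of 31 bases in common, and all 3 pairs included Car5b. The members other than Car5b and Car9 had no such word in common with another gene named Car.

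In the WT library Car4 and Car13 stood above the rest of the family, and in the KO library Car1 had joined the genes behind them. Wild-type levels ran from 74.7 FPKM for Car4 and 45.1 for Car13, through 11.2 for Car9, 10.7 for Car3, 9.17 for Car8, 5.71 for Car2, 2.88 for Car12 and 1.44 for Car14, to 0.874 for Car1 and 0.271 for Car5b. Neighbours in that order were further apart than their counting error except Car9 and Car3, with a ratio of 1.046 (95% interval 0.920 to 1.19), and Car14 and Car1, with a ratio of 1.65 (0.978 to 2.92). The KO library read 124 FPKM for Car4, 41.6 for Car13, 15.9 for Car1, 14.01 for Car8, 13.8 for Car9, 11.3 for Car3, 3.72 for Car12, 3.34 for Car2, 1.024 for Car14 and 0.294 for Car5b. There the neighbours Car8 and Car9 (ratio 1.018, 0.916 to 1.13) and Car12 and Car2 (1.11, 0.922 to 1.35) lay within counting error. Car1 was number 9 of the family in the WT library and number 3 in the KO library, while Car4, Car13, Car12 and Car5b kept their places. The place of Car1 above Car8 in the KO library is narrow, with a ratio of 1.13 (1.00025 to 1.28).

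**Figure D1:**
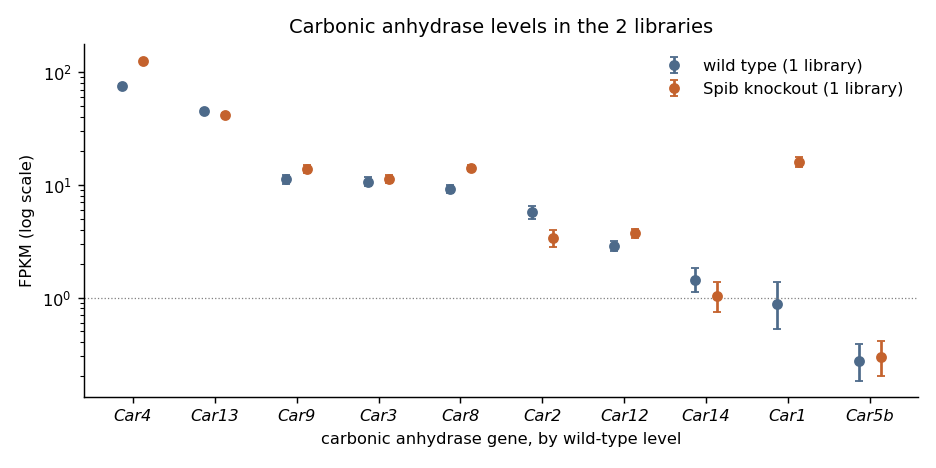
FPKM of each carbonic anhydrase gene (log axis) in the wild-type and the Spib knockout library, ordered by wild-type level. Points are single libraries, bars are exact Poisson 95% intervals of the reads, and the dotted line marks the minimum of 1 FPKM. Car1 lies at 0.874 FPKM in the wild type and at 15.9 FPKM in the knockout, while the other genes differ by less than 2-fold.

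Car1 was the single member at least 2-fold higher in the KO library, and none was 2-fold lower. Here 2-fold refers to the log2 ratio, log2((KO FPKM + 1) / (WT FPKM + 1)), over the 9 members that reached 1 FPKM in at least 1 library. Over all 13479 genes that did so, 1.61% were at least 2-fold higher and 2.51% at least 2-fold lower, 4.12% in all. The median log2 ratio of the 9 members was 0.28, beside -0.049 over all compared genes. Plain ratios of FPKM had a counting interval above 1 for Car1, Car4, Car8, Car9 and Car12 and below 1 for Car2 and Car13. The interval spanned 1 for Car3, Car5b and Car14.

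**Figure D2:**
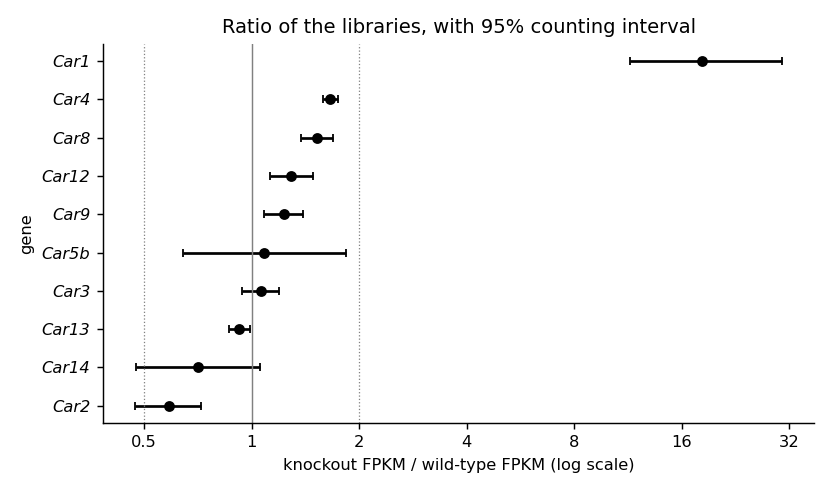
Ratio of knockout to wild-type FPKM of each carbonic anhydrase gene (log axis), with exact Clopper-Pearson 95% intervals from the reads of the 2 libraries. Dotted lines mark 2-fold. Car1 lies at 18.2 (11.5 to 30.6), and the other points lie between 0.586 and 1.66.

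Car1 encodes a cytosolic enzyme that is best known from red blood cells and from the surface epithelium of the colon. The gene (ENSMUSG00000027556) lies on the minus strand of chromosome 3, from 14766216 to 14808368 in mm10. Its FPKM was 0.874 in the WT library, from 19 reads (95% Poisson interval 0.526 to 1.36 FPKM), and 15.9 in the KO library, from 350 reads (14.3 to 17.6 FPKM). The KO library was thus the high one, 18.2-fold above the WT library with an interval of 11.5 to 30.6, and the level intervals do not overlap. The gene passed the minimum of 1 FPKM through the KO library alone. By log2 ratio, 3.17, it was number 7 of the 13479 compared genes, and by level it was number 13136 in the WT library and number 3095 in the KO library. The log2 ratio depended on the pseudocount, with 4.04 for a pseudocount of 0.1 and 1.83 for one of 5.

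The most abundant globin genes of red blood cells and Aqp4, a water channel gene listed for the large intestine, differed less than Car1. The adult beta-globin gene Hbb-bs had 4.41 FPKM in the WT library and 3.83 in the KO library, and the alpha-globin gene Hba-a1 had 1.41 and 1.67. Globin copies are nearly identical and can share reads, so their single values are uncertain. Alas2, the first enzyme of heme synthesis in red cells, was near 0 (0.119 and 0.236 FPKM). The other red cell genes were mixed. Bpgm, the most abundant of the list, had 17.4 FPKM in the WT library and 16.4 in the KO library. Hba-a2 had 2 reads and 1 read, and Ermap had 15 reads in each. Some others lay on the same side as Car1 at levels under 1 FPKM. Rhag, a membrane protein of the Rh complex, had 0.147 FPKM from 6 reads and 0.654 FPKM from 27 reads, 4.44-fold higher in the KO library with an interval of 1.80 to 13.2. The spectrin gene Sptb had 0.269 FPKM from 57 reads and 0.462 FPKM from 99 reads, 1.71-fold higher (1.23 to 2.42). The globin gene Hbb-bt had 0.327 and 0.725 FPKM from 4 and 9 reads, and its interval for KO over WT (0.620 to 9.87) spans 1. For the large intestine, Aqp4 had 4.55 and 3.18 FPKM. Aqp8, another water channel gene, was near 0 in both libraries, with 0.0363 and 0.0358 FPKM. It had 1 read in each, and its interval for KO over WT, 0.0126 to 77.5, is too wide to judge a difference. These genes are part of their lists only, and the part of red blood cells or of colon-type cells in the level of Car1 was not tested.

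Car1 sits in a cluster with Car13, Car3 and Car2, and none of its measured neighbours reached 2-fold. From its start site, that of Car13 lies 167 kb to one side, and those of Car3 and Car2 lie 55.1 kb and 77.9 kb to the other, all on the plus strand. The log2 ratios along the cluster were -0.11 for Car13, 3.17 for Car1, 0.08 for Car3 and -0.63 for Car2. Beyond Car13, the protein-coding genes 1810022K09Rik, E2f5, an E2F transcription factor, and Lrrcc1, a centrosome protein, had log2 ratios of 0.08, -0.01 and 0.07. The 2 non-coding genes beyond Car2 in the table within 500 kb of Car1, A930001A20Rik and Gm33819, had 0 reads in both libraries. Car2 was the next furthest from 0 in this stretch, in the opposite direction to Car1.

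**Figure D3:**
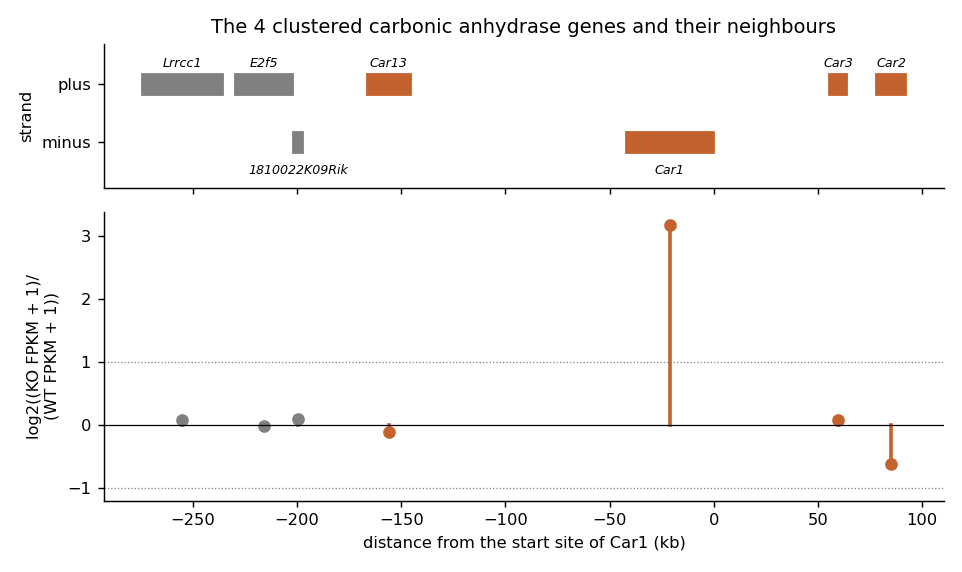
Positions of the clustered carbonic anhydrase genes (orange) and neighbouring protein-coding genes (grey) by strand, in kb from the start site of Car1 (top), and the log2 ratio of each gene (bottom). Dotted lines mark 2-fold. Car1, at 3.17, is the only gene shown past 2-fold.

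Car13, a cytosolic enzyme known from gut among other tissues, was the most abundant cytosolic member (plus strand of chromosome 3, 14641727 to 14663002). It had 45.1 FPKM from 1805 reads in the WT library and 41.6 FPKM from 1690 reads in the KO library. The WT library was the higher by 1.082-fold, with an interval of 1.012 to 1.16, a small difference next to the spread of the family.

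Car2, the fast cytosolic enzyme that serves acid and bicarbonate secretion in many epithelia, had the lowest log2 ratio of the family (plus strand of chromosome 3, 14886273 to 14900770). Its level was 5.71 FPKM from 241 reads in the WT library and 3.34 FPKM from 143 reads in the KO library, 1.71-fold lower with an interval of 1.38 to 2.12. That placed it number 12797 of the compared genes by log2 ratio, at the opposite end from Car1. Car3, a slow enzyme abundant in fat and skeletal muscle, had 10.7 FPKM from 534 reads and 11.3 FPKM from 574 reads, and its interval for KO over WT (0.941 to 1.20) spans 1. Fat cell markers lay on both sides, with 3 of 7 compared genes above 0 on the log2 scale, 4 below and none past 2-fold. Over all compared genes 41.3% were above 0. Their sum of 58.5 and 84.5 FPKM was mostly Cidec (26.7 and 47.3), which enterocytes also express, and Cfd (16.1 and 23.0). Adipoq had 3.66 and 4.06 FPKM, Plin4 had 3.26 and 2.69, and the leptin gene Lep, too low to be compared, had 18 and 1 reads. Of the muscle markers, the actin gene Acta1 had 13.3 and 10.1 FPKM and the creatine kinase gene Ckm 1.26 and 1.61. Their part in the level of Car3 was not tested.

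Car4, the lipid-anchored enzyme of the outer membrane face, was the most abundant member in both libraries (plus strand of chromosome 11, 84957786 to 84966044). It had 74.7 FPKM from 2560 reads in the WT library (71.9 to 77.7) and 124 FPKM from 4310 reads in the KO library (120 to 128). The KO library was the higher by 1.66-fold, with an interval of 1.58 to 1.75, and the log2 ratio of 0.72 did not reach 2-fold. By log2 ratio it was number 349 of the compared genes, and by level it went from number 652 to number 354. In absolute terms its difference of 49.4 FPKM exceeded the 15.0 FPKM of Car1.

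Car9, Car12 and Car14 span the membrane with the catalytic domain outside. Car9, known as a target of hypoxia-inducible factors and as an enzyme of the stomach and upper gut, had 11.2 FPKM from 449 reads in the WT library and 13.8 FPKM from 560 reads in the KO library, 1.23-fold higher (1.085 to 1.40). Exons of an antisense gene, Gm12454, cover 9.3% of the exon bases of Car9, and whether the counting used strand is not given, so some of these reads may belong to that gene (2.92 and 4.29 FPKM). Car12, another hypoxia-responsive member, known from colon and kidney, had 2.88 FPKM from 381 reads and 3.72 FPKM from 499 reads, 1.29-fold higher (1.13 to 1.48). Both were thus slightly on the KO side. Car14 had 1.44 FPKM from 64 reads and 1.024 FPKM from 46 reads, with an interval for KO over WT of 0.475 to 1.052. Since 17.5% of its exon bases lie under exons of Aph1a on the other strand, a gene at 23.7 and 23.2 FPKM, its low level is uncertain.

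The promoters of Car4 and Car9 are shown because Car4 carried the largest difference in FPKM and Car9 is the member best known for control by oxygen. They are RefSeq sequences on GRCm38.p6, from 250 bases before to 50 bases after the start site, 5′ to 3′ on the gene's strand, and capitals mark the core of the hypoxia response element, ACGTG, on either strand (CACGT on the strand printed). Car4 is at chr11:84957504-84957803 and Car9 at chr4:43506776-43507075, both on the plus strand.
Car4: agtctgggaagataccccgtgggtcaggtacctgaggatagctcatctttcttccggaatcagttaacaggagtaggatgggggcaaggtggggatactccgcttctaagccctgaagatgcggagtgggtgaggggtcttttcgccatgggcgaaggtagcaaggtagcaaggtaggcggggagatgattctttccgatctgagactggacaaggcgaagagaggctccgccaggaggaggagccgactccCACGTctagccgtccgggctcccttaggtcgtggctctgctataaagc
Car9: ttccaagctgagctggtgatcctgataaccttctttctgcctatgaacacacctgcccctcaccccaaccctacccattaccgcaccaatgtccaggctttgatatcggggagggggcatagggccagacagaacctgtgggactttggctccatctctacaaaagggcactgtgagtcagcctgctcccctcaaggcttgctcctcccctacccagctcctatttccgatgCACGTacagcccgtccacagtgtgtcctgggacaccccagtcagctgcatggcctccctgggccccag
Of the 10 members 5 had a promoter sequence in the RefSeq table (Car4, Car5b, Car9, Car12 and Car14). The ACGTG form of the hypoxia core was found in the windows of Car4, Car9 and Car14, and in 19.6% of all 32851 promoter windows of 300 bases. Other forms of that core were not searched. The core of the PU box that Spib and its relative PU.1 bind, GAGGAA on either strand, was in none of the 5 windows and in 28.3% of all windows. These are matches of letters only and say nothing about binding.

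Car8 and Car5b differ from the other members in activity and place. Car8, the member with the arginine codon printed above, binds the inositol trisphosphate receptor and is best known from cerebellar Purkinje cells. On the minus strand of chromosome 4 (8143362 to 8239041), it had 9.17 FPKM from 616 reads in the WT library and 14.01 FPKM from 953 reads in the KO library, 1.53-fold higher (1.38 to 1.69). With a log2 ratio of 0.56 it came after Car1 and Car4 in the family and was number 514 of the compared genes. Car5b, the mitochondrial enzyme, stayed under 1 FPKM, with 0.271 FPKM from 30 reads and 0.294 FPKM from 33 reads, and was not among the compared genes. Its interval for KO over WT, 0.642 to 1.84, spans 1, so that no difference was detectable at this depth.

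Summed over the 10 genes, carbonic anhydrase FPKM was 162 in the WT library and 229 in the KO library, 1.41-fold higher (1.37 to 1.46). Car4 made up 73.6% and Car1 22.4% of the difference. Without both, the remaining 8 genes summed to 86.4 and 89.1 FPKM, a ratio of 1.031 whose interval (0.987 to 1.078) spans 1. The 4 members facing outward went from 90.2 to 143 FPKM, and the 4 active cytosolic members from 62.3 to 72.2 FPKM. Leaving Car1 out turned the direction of the cytosolic sum, to 61.5 and 56.3 FPKM, a ratio of 0.916 (0.867 to 0.969). Car4 held 46.1% of the family sum in the WT library and 54.2% in the KO library, Car13 27.8% and 18.2%, and Car1 0.539% and 6.93%.

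**Figure D4:**
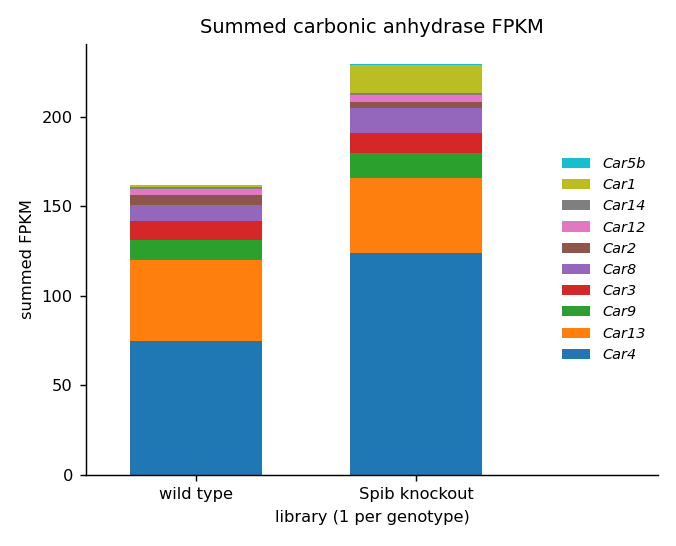
Summed FPKM of the 10 carbonic anhydrase genes in each library, stacked by gene in the order of wild-type level from Car4 at the base. The stack is 162 FPKM high in the wild type and 229 in the knockout, and most of the added height lies in Car4 and Car1.

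Of the 8 other measured genes with a carbonic anhydrase domain, 1 reached 1 FPKM, the receptor phosphatase gene Ptprg, with 6.60 FPKM in the WT library and 5.86 in the KO library. Car7, a cytosolic form of brain, had 10 and 28 reads, or 0.158 and 0.436 FPKM, with a ratio of 2.76 (1.30 to 6.38) at a level too low to be compared. The inactive Car11 (0.447 and 0.4998 FPKM) and the membrane-anchored Car15 (0.492 and 0.353) were low in both libraries, as was the neural receptor phosphatase gene Ptprz1 (0.161 and 0.123). The liver mitochondrial Car5a had 3 reads and 0 reads, the inactive Car10 had 1 and 0, and the secreted salivary form Car6 had none in either library.

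The transporters that exchange bicarbonate and protons across the epithelium differed less than Car1. Of the 30 genes on that list, 28 were measured and 19 compared, none was 2-fold higher or lower, and their median log2 ratio was 0.14, beside -0.049 over all genes. The sodium-hydrogen exchanger Slc9a3 of the brush border had 30.9 and 37.8 FPKM, the chloride-bicarbonate exchangers Slc26a3 and Slc26a6 had 23.1 and 25.7 FPKM and 65.8 and 57.7 FPKM, and the basolateral sodium-bicarbonate cotransporter Slc4a4 had 17.8 and 19.7. Cftr, the chloride and bicarbonate channel of crypts, had 16.3 and 19.7 FPKM. The most abundant genes of the list were the exchanger scaffold Slc9a3r1 (671 and 580 FPKM) and the guanylin genes Guca2a (656 and 712) and Guca2b (549 and 440), peptides that stimulate bicarbonate secretion. None of these ratios came near that of Car1.

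Enzymes that consume bicarbonate lay on both sides of their wild-type levels. All 9 carboxylases and carbamoyl phosphate synthases on the list were compared, and none passed 2-fold. The log2 ratio was above 0 for 5 and below for 4, beside 41.3% above 0 over all compared genes, and the median was 0.18. Their most abundant gene, the mitochondrial carbamoyl phosphate synthase Cps1 of citrulline synthesis, had 171 and 194 FPKM, followed by the propionyl-CoA carboxylase subunit Pccb with 46.6 and 56.4. Pyruvate carboxylase, listed in the table as Pcx, had 9.75 and 13.6. The acetyl-CoA carboxylase gene Acacb was 1.57-fold higher in the KO library (0.643 and 1.01 FPKM, interval 1.23 to 2.02), whereas its paralog Acaca had 4.23 and 3.15 FPKM and the pyrimidine synthesis gene Cad had 5.46 and 4.01.

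Since Car9 and Car12 respond to hypoxia elsewhere, a list of 20 other genes of that response was set beside them. Of 19 compared, 1 was 2-fold higher, 1 was 2-fold lower and 17 lay between, with a median log2 ratio of 0.33. The log2 ratio was above 0 for 15 and below 0 for 4, beside 41.3% above 0 over all compared genes. The higher one was the oxygen-sensing prolyl hydroxylase Egln3, with 13.3 FPKM in the WT library and 62.6 in the KO library, 4.71-fold higher (4.32 to 5.15). The lower one was the glycolysis regulator Pfkfb3, with 18.4 and 6.92 FPKM. The glycolytic genes Ldha (396 and 494 FPKM) and Pgk1 (126 and 163) lay on the same side as Car9 and Car12, while Vegfa, the angiogenic factor, lay on the other (29.6 and 19.8).

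Markers of several cell types also differed between the libraries. In whole tissue, fewer cells of a type and less RNA per cell cannot be told apart. Among tuft cell markers 8 of 11 compared genes were at least 2-fold higher in the KO library, none was lower, and the 12 measured summed to 28.3 and 99.2 FPKM. Goblet cell markers summed to 5881 and 7755 FPKM, a difference that lay mostly in the 2 of 8 genes past 2-fold, Clca1 (696 and 2059) and Spink4 (511 and 1095). Fcgbp (534 and 454) and Zg16 (1843 and 1750) were lower, and the median log2 ratio was 0.15. Paneth cell markers summed to 19811 and 29995 FPKM, mostly through Defa24 (9553 and 16278) and Ang4 (809 and 4221), the 1 of 8 past 2-fold. Lyz1 (5754 and 4250) and Pla2g2a (48.2 and 28.6) were lower. Defensin genes have near-identical copies that can share reads, so the value of Defa24 is uncertain. B and T cell markers were lower, with 3 of 11 past 2-fold and sums of 38.4 and 14.7 FPKM. Enterocyte markers summed to 14330 and 12346 FPKM, with none of 10 past 2-fold. The part of any of these cell types in the levels of Car1, Car4, Car8 and Car2 was not tested. Genes of electrogenic sodium absorption, which works beside carbonic anhydrase in the distal gut, had a median log2 ratio of -0.06 over 7 compared genes with none past 2-fold.

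**Figure D5:**
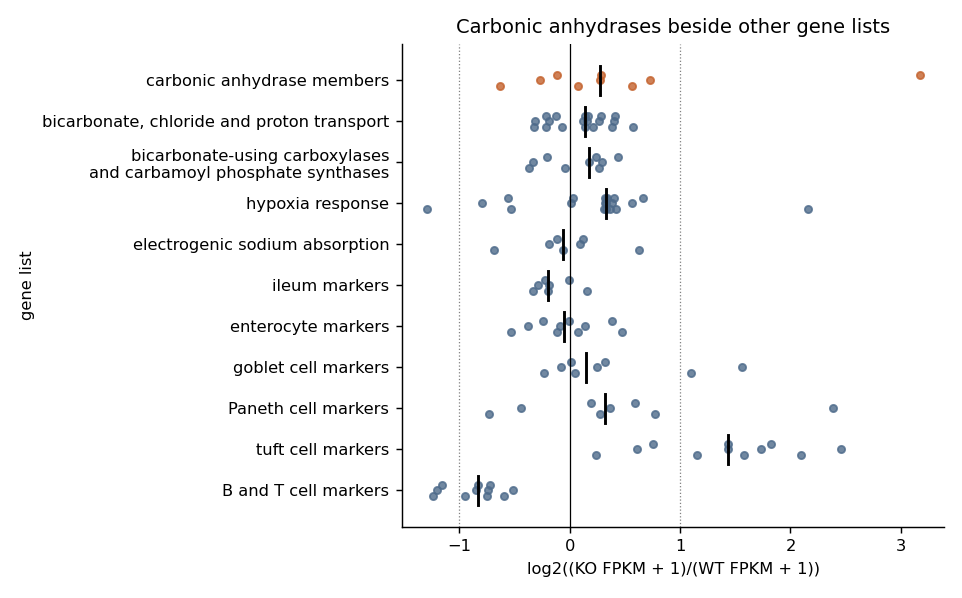
Log2 ratio of each compared gene (points) by gene list, with the list median as a black bar and dotted lines at 2-fold. Car1 lies at 3.17, to the right of every gene of the other lists shown, the tuft cell markers lie to the right of 0 and the B and T cell markers to the left.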

How the data were processed

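RNA was taken up in TRIzol and amplified by SMART-Seq II, per the labels' protocols. The authors deposited FPKM values for 27275 genes. The submitters' processing notes name Bowtie2 2.2.3, HTSeq 0.6.0 and mm10, with no roles. The annotation, the strand setting and any filter were not given in the sources used here.

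Columns were matched to libraries by name. Positions and exon lengths came from GENCODE M21 (GRCm38, the same assembly as mm10), which held 27222 of the identifiers. FPKM times exon length stepped in whole reads, within 0.01, for 90.6% of the values above 0 in the WT library and 90.7% in the KO library, which gave the depths. This step was tested on simulated data. Genes with 1 FPKM or more in at least 1 library were compared with a pseudocount of 1. Intervals at 95% are exact Clopper-Pearson for ratios of reads of a gene or of a pair of genes, exact Poisson for levels and a delta-method approximation for sums. They treat reads as independent molecules, although PCR copies without molecular identifiers are not. A count of 0 was given a floor of 3 reads.

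With 1 library per genotype no test was made. The members and the other gene lists (24 lists with the members' own, 258 genes in all, 12 of which are not analysed here) were chosen with earlier results of these data known. Named genes are all carbonic anhydrase genes, and from the other lists those past 2-fold or among the 3 most abundant, with a few more chosen for their role after the values were seen. For 2 further listed genes results are not reported here, so the lists that held them are given by single genes and not by counts. Coding stretches were aligned as translations with MAFFT 7.526. Alternatives varied the pseudocount, the minimum, the scaling and the members of sums. Computations used Python 3.11.15 with pandas 2.3.3 and scipy 1.17.1.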

Additional observations from a re-analysis of the deposited data

How the results depend on the processing

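No paired analysis was possible because each genotype has 1 library. The log2 ratio of Car1 was 3.17 as reported, 4.04 when 0.1 was added in place of 1 and 1.83 when 5 was added, and it was 3.14 and 3.23 under the 2 rescalings of the libraries. The numbers of carbonic anhydrase genes past 2-fold, 1 higher and 0 lower, were the same under all 6 alternatives of pseudocount, scaling and minimum. Over all genes, 217 were higher and 338 lower, against 355 and 575 when 0.1 was added, 61 and 122 when 5 was added, and 97 and 193 among genes of at least 5 FPKM, where fewer genes were compared. The ratio of the summed family, 1.41, was 1.47 with the libraries scaled to a median log2 ratio of 0, 1.20 without Car4 and 1.32 without Car1, the last chosen after seeing the data. The ratio of the cytosolic sum, 1.16, was 1.77 without Car13 and reversed to 0.916 without Car1. For the other 9 members, none of 36 alternative log2 ratios changed sign, and 34 stayed within the counting interval. Depth limits Car5b and Car14, with 30 to 64 reads a library, and Car1 in the WT library, with 19.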

Other observations

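Zinc, the cofactor of carbonic anhydrases, is buffered by metallothioneins, and Mt1 was lower in the KO library, with 198 FPKM in the WT library and 82.9 in the KO library, 2.39-fold lower (2.27 to 2.53). It was the single gene past 2-fold among 15 compared genes of zinc handling. The intestinal zinc importer Slc39a4 had 106 and 99.3 FPKM, and the basolateral Slc39a5 had 60.5 and 58.8.

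The iron exporter gene Slc40a1, a proximal gut marker, had 8.75 and 3.41 FPKM. Trefoil factor Tff2, a product of gastric and Brunner gland mucous cells, had 25 reads in the WT library and 0 in the KO library. With the KO value set to the floor of 3 reads it was 8.44-fold lower, and the counting interval began at 6.37-fold lower.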
